A study of Mus musculus with 7 samples.

Results

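The genes described here are 40 genes that act in G2 and mitosis, the last stages of the cell cycle, in which a cell that has copied its DNA divides it between 2 daughter cells. They were chosen by name, for their role, and all 40 were listed in the 7 libraries of single thymic epithelial cells (TECs), among 20839 genes listed in any library and 14052 listed in all of them. All 40 are protein-coding and lie on 17 chromosomes (GRCm38). The libraries were made from C57BL/6 mice, each from EpCAM+ CD45- cells sorted from 3 pooled thymi, and together they held 8453 cells. The lineage tracing library (Aire trace) came from Aire-CreERT2-R26-CAG-Stopfl-zsGreen mice that received 2 mg tamoxifen on alternate days over 10 days and were killed at 6 weeks of age. In these mice the Aire promoter drives the recombinase, so that ZsGreen labels cells that expressed *Aire* while tamoxifen was present. The other libraries came from mice given 3 injections of 100 µg of antibody within 1 week. An isotype antibody was used for the controls of week 2 (4 weeks of age) and week 10 (12 weeks of age), and antibody against RANKL, the cytokine that drives maturation of *Aire*-expressing medullary TECs (mTECs), for week 2, week 4, week 6 and week 10 (4, 6, 8 and 12 weeks of age). Weeks 4 and 6 have no control of their own age and are therefore set beside both controls. Each group is 1 library, so there is no replicate check, no test was possible, and every interval covers counting error only.

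A cell enters mitosis when cyclin B switches on the kinase *Cdk1*. Aurora and Polo-like kinases, the kinetochore on each centromere and kinesin motors then attach and align the chromosomes on the spindle, and the anaphase-promoting complex, activated by *Cdc20* and supplied with ubiquitin by *Ube2c*, lets the sister chromatids part by marking securin for destruction and ends mitosis by doing the same to cyclin B. Many of these genes are transcribed together late in the cycle, through promoters with CCAAT boxes, which bind NF-Y, and cell cycle genes homology regions (CHR), which bind the DREAM and MuvB complexes. In the medulla, TECs are renewed from dividing cells, while *Aire* marks the mTECs that display peripheral antigens and *Ccl21a* a chemokine that draws thymocytes into the medulla.

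Of the 40 genes, 35 matched a RefSeq promoter window of GRCm38.p6 that runs from 250 bases before to 50 after the annotated start, and *Tpx2*, *Dlgap5*, *Cdca2*, *Aurkb* and *Ccna2* had no entry. Both strands were searched for a CHR core (TTTGAA or TTCAAA) and for a CCAAT box (CCAAT or ATTGG), and overlapping matches were counted separately. A CHR core was present in 26 of the 35 genes (74.3%), against 17.9% of all 32851 windows, and a CCAAT box in 27 (77.1%), against 37.4%. Both stood in the windows of 22 genes (62.9%), against 6.95% of all windows. Within 50 bases on either side of the start, a CHR core was found in 23 genes (65.7%, against 4.94%). In the 250 bases before the start it was found in 12 (34.3%, against 16.0%). These are matches of letters and not sites shown to be bound. The stretches upstream of 6 of the genes are shown because their members head the results that follow, as the entry kinase, the 2 factors of the anaphase-promoting complex, the centromere gene with a course of its own, a spindle motor, and the gene most often found beside S phase genes. They are chr10:69352939-69353112 (*Cdk1*, minus strand), chr4:118437353-118437543 (*Cdc20*, minus), chr2:164769729-164769897 (*Ube2c*, plus), chr1:189688087-189688286 (*Cenpf*, minus), chr19:37376182-37376381 (*Kif11*, plus) and chr11:99024190-99024389 (*Top2a*, minus), each read 5′ to 3′ from RefSeq and stopped before the first base annotated as transcribed by RefSeq or GENCODE. Capitals mark CHR cores and CCAAT boxes.
Cdk1: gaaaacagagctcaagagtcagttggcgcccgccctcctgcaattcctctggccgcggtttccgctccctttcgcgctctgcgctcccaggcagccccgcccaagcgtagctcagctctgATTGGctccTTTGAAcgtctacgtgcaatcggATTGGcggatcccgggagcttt
Cdc20: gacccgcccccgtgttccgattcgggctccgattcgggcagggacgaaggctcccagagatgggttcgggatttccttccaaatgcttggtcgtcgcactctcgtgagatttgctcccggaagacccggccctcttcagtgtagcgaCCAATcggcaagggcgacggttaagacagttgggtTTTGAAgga
Ube2c: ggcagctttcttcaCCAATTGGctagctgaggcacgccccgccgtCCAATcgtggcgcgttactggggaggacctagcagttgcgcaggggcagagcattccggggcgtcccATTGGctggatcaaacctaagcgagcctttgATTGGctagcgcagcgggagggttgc
Cenpf: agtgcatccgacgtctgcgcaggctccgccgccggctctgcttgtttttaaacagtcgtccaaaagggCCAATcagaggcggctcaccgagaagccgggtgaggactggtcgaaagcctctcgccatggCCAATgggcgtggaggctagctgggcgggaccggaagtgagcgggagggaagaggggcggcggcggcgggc
Kif11: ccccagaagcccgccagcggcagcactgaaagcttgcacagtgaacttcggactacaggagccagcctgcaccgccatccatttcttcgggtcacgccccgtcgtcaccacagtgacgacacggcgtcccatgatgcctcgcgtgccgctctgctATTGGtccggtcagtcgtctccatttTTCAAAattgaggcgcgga
Top2a: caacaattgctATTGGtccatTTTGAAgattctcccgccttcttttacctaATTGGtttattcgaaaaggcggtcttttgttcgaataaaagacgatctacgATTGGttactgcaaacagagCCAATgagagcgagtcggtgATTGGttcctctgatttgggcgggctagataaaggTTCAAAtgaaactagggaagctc
The stretch of *Top2a* held 2 CHR cores and 5 CCAAT boxes, that of *Ube2c* 5 CCAAT boxes and no CHR core, and that of *Cenpf* 2 CCAAT boxes and no CHR core. These counts cover the printed bases only and leave out any match at or after the start.

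The median depth lay between 4299.5 unique molecular identifiers (UMIs, each a tag for 1 captured RNA molecule) per cell at anti-RANKL week 6 and 16809 in the week 2 control. Cells with no *Ptprc* (CD45) UMI were kept and thinned at random to 2000 UMIs, which left out 111 shallower cells at week 4 and 61 at week 6. Levels are UMIs per 10000 UMIs of these thinned cells. The libraries shared between 0 and 7 cell barcodes in the 21 pairs. The TEC markers *Epcam*, *Krt5*, *Krt8*, *Krt18* and *Cdh1* summed to between 40.8 and 63.0 per 10000 in cells with fewer than 5 of the 40 genes, depending on the library.

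At equal depth, mitosis genes were rare in TECs and far lower early after anti-RANKL than in the controls. The summed level of the 40 genes was 6.43 per 10000 in the week 2 control and 7.88 in that of week 10. It was 1.71 at anti-RANKL week 2, 2.13 at week 4, 3.43 at week 6 and 6.44 at week 10, and 4.24 in the lineage tracing library. Week 2 after anti-RANKL was thus 3.76-fold lower than its control (ratio 0.266, 95% interval 0.238 to 0.297). Week 4 was 3.01-fold below the week 2 control (0.332, 0.301 to 0.366) and 3.69-fold below the week 10 control (0.271, 0.246 to 0.298). Week 6 was 1.88-fold and 2.3-fold below them, and week 10 was 1.22-fold below its control (0.818, 0.764 to 0.875). The level was higher at each later time after anti-RANKL, and each of these intervals lay wholly under 1. The mean number of the 40 genes detected per cell followed the same order, with 1.04 and 1.29 in the controls and 0.292, 0.334, 0.556 and 1.06 at weeks 2, 4, 6 and 10.

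Most cells held none of the 40 genes. The share with none was 60.3% and 54.1% in the controls of weeks 2 and 10, and 81.4%, 79.6%, 67.9% and 60.2% at anti-RANKL weeks 2, 4, 6 and 10. A cell with at least 5 of the 40 genes detected is called member-rich, which is a range of a count and not a cell type. Member-rich cells were 76 of 1129 (6.73%, exact binomial 95% interval 5.34 to 8.35) in the week 2 control and 121 of 1247 (9.70%, 8.12 to 11.5) in the week 10 control. After anti-RANKL they were 8 of 1184 (0.676%, 0.292 to 1.33) at week 2, 14 of 1340 (1.04%, 0.572 to 1.75) at week 4 and 13 of 658 (1.98%, 1.06 to 3.35) at week 6. By week 10 they were 92 of 1172 (7.85%, 6.37 to 9.54), and in the lineage tracing library 49 of 1318 (3.72%, 2.76 to 4.89). The intervals of weeks 2, 4 and 6 did not overlap those of either control, and that of week 10 overlapped both.

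**Figure D1:**
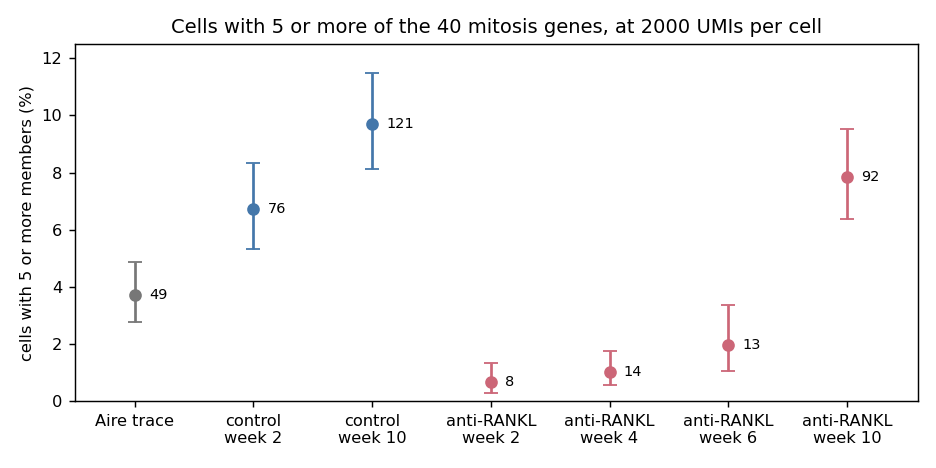
Share of cells with 5 or more of the 40 genes detected at 2000 UMIs per cell (vertical axis, percent) in each of the 7 libraries, with exact binomial 95% intervals. The shares at anti-RANKL weeks 2, 4 and 6, between 0.676% and 1.98%, sit below both controls (6.73% and 9.70%), and week 10 (7.85%) sits between them.

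The few member-rich cells that were left at weeks 2 and 4 carried many of the genes. They held a mean of 10.8 and 10.6 of the 40 genes, against 8.37 and 7.65 in the controls of weeks 2 and 10, and 7.85 at week 6. The most in 1 cell was 18 at weeks 2 and 4, and 19 and 21 in the controls. The cut of 5 ran through a continuous range. In the week 10 control 20 cells held exactly 4 of the genes, 32 exactly 5 and 15 exactly 6, while at anti-RANKL week 2 these numbers were 4, 1 and 1. The member-rich cells held 58.2% and 59.7% of the UMIs of the 40 genes in the controls, and 29.4%, 41.3%, 29.9% and 58.2% at weeks 2, 4, 6 and 10. The genes were also lower outside the member-rich cells, where their summed level was 2.88 and 3.51 per 10000 in the controls and 1.22, 1.27, 2.45 and 2.92 at weeks 2, 4, 6 and 10. Member-rich cells had been deeper before thinning, with a median of 33366.5 UMIs against 16481 for the other cells in the week 2 control, 21405 against 11147 at anti-RANKL week 2 and 5528 against 4980 at week 4, where the gap was small. At or under the median depth of its library the member-rich share was 1.95% in the week 2 control and 0.169% at anti-RANKL week 2, and above that median 11.5% and 1.18%. At week 4 the 2 shares were 0.896% and 1.19%. At 4000 UMIs per cell the share was 9.74% in the week 2 control and 1.58% at anti-RANKL week 2. The week 6 share was also higher at that depth, with a smaller gap to the week 2 control, as given further on.

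Nearly all of the 40 genes were lower at weeks 2 and 4. At anti-RANKL week 2, 39 of 40 were below the week 2 control, 34 at least 2-fold, and for 33 the interval of the ratio lay wholly under 1, with a median difference of 5.06-fold. At week 4 the genes at least 2-fold lower were 34 of 40 against the week 2 control and 35 against the week 10 control, and at week 6 they were 23 and 33. At week 10 they were 3 of 40, with a median difference of 1.33-fold and 34 of 40 genes below the control. Genes with at least 30 UMIs in the 2 libraries together give the background. In this filtered set the share of all genes at least 2-fold lower was 10.9% at week 2, 16.1% and 14.2% at week 4 against the controls of weeks 2 and 10, 16.7% and 14.8% at week 6, and 1.49% at week 10. Of the 40 genes, 16 of the 18 that passed this filter were at least 2-fold lower at week 2. At week 4 they were 16 of 19 and 21 of 24 against the controls of weeks 2 and 10, at week 6 10 of 19 and 20 of 24, and at week 10 0 of 30.

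**Figure D2:**
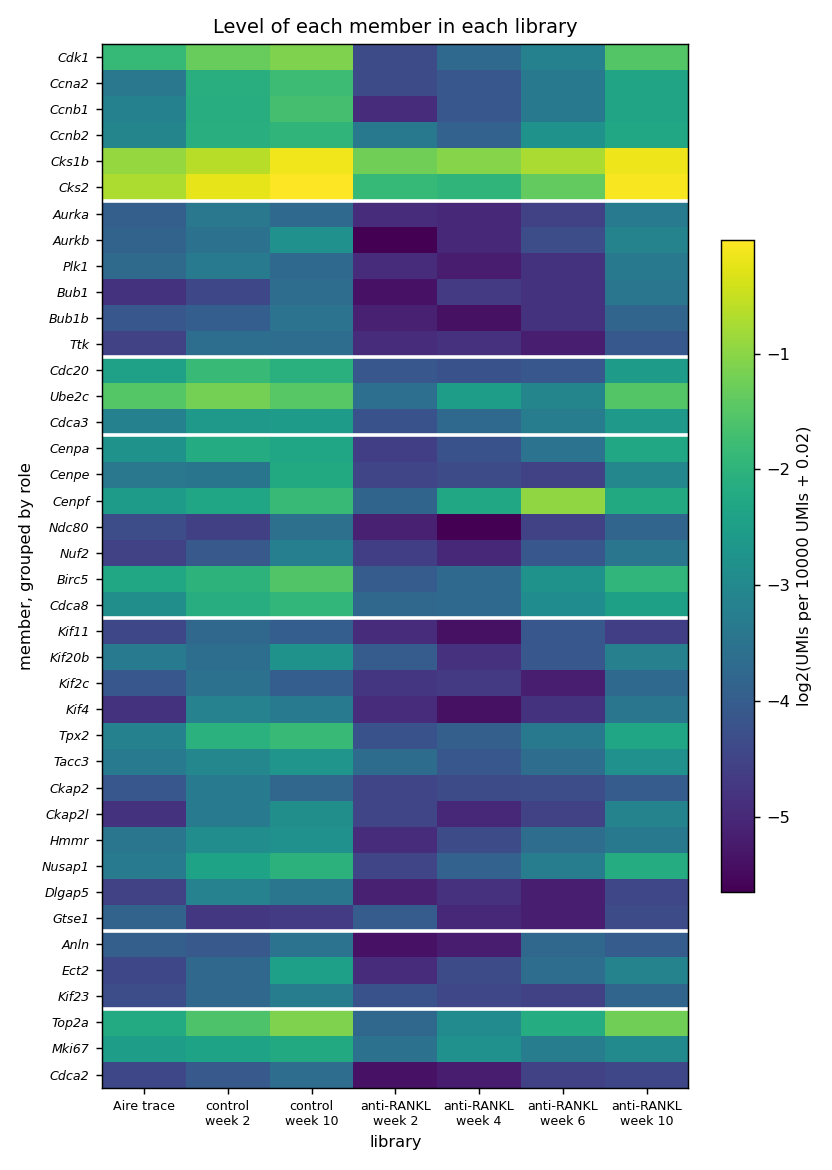
Level of each of the 40 genes (rows, grouped by role) in the 7 libraries (columns) at 2000 UMIs per cell, as colour on the scale log2(UMIs per 10000 + 0.02). Most rows are darker at anti-RANKL weeks 2 and 4 than in the controls and close to them at week 10, and *Cenpf* at week 6, at 0.494 per 10000, is brighter than in the controls.

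Among the cyclins and their kinase, *Cdk1* itself had a level of 0.381 per 10000 in the week 2 control and 0.441 in that of week 10, 0.0296, 0.0560, 0.0912 and 0.328 at anti-RANKL weeks 2, 4, 6 and 10, and 0.25 in the lineage tracing library. It rested on 7 UMIs at week 2 against 86 in the control, a 12.9-fold lower level (ratio 0.0776, 0.0303 to 0.167). *Ccnb1*, the cyclin that carries *Cdk1* into mitosis, was at 0.208 and 0.293 in the controls and at 0.0127, 0.0373, 0.0760 and 0.175 after anti-RANKL, with 3 UMIs at week 2 against 47 (16.4-fold lower, 0.0609, 0.0121 to 0.189). Both genes were thus lowest at week 2 and higher at each later time. Over all UMIs without thinning, the week 2 differences were smaller, 8.2-fold for *Cdk1* and 7.15-fold for *Ccnb1* (72 UMIs against 760). *Ccna2*, the cyclin of S and G2, had 48 and 67 UMIs in the controls and 7, 10, 10 and 41 after anti-RANKL. The cyclin partner *Ccnb2* had 48 and 59, and 18, 13, 17 and 44. *Cks1b* and *Cks2* encode small subunits that bind Cdk1, and *Cks1b* differed least of this group. It was at 0.633 per 10000 in the week 2 control and 0.405 at anti-RANKL week 2 (ratio 0.640, 0.489 to 0.835), and was at 0.886 and 0.870 in the week 10 control and at week 10 (0.982, 0.808 to 1.19). *Cks1b* also acts in the degradation of p27 in G1 and S.

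The kinases and the spindle checkpoint, which holds anaphase back until every chromosome is attached, were a sparse group. Its 6 genes summed to 0.354 and 0.425 per 10000 in the controls and to 0.0507, 0.0672, 0.106 and 0.414 at weeks 2, 4, 6 and 10. *Aurkb*, the kinase that corrects wrong attachments, had 15 and 31 UMIs in the controls and 0, 3, 4 and 22 after anti-RANKL. *Plk1*, which acts from mitotic entry to exit, had 18 and 14, then 3, 2, 2 and 18, and *Aurka*, the kinase of the spindle poles, had 17 and 14, then 3, 3, 3 and 19. Single genes of this group therefore rest on few molecules, and a UMI count of 0 does not show absence at this depth.

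The anaphase-promoting complex route held *Cdc20* and *Ube2c*, both strongly confined to member-rich cells, as shown further on. *Cdc20*, its activator, was at 0.257 and 0.217 per 10000 in the controls and at 0.0380, 0.0336, 0.0380 and 0.154 after anti-RANKL (6.76-fold lower at week 2). *Ube2c*, its ubiquitin-conjugating enzyme, was at 0.416 and 0.341 in the controls and at 0.0633, 0.157, 0.0988 and 0.328 (6.57-fold lower at week 2, where 8 of its 15 UMIs lay in 1 cell). *Cdca3*, a trigger of mitotic entry that the complex degrades, had 32 and 38 UMIs in the controls and 8, 15, 11 and 34 after anti-RANKL. All 3 were below both controls at weeks 2, 4 and 6.

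Of the kinetochore and centromere genes, *Cenpa*, the histone H3 variant that marks the centromere, was at 0.199 and 0.176 per 10000 in the controls and at 0.0211, 0.0336, 0.0684 and 0.183 after anti-RANKL, 9.44-fold lower at week 2 (5.25-fold over all UMIs without thinning). *Birc5* and *Cdca8*, subunits of the chromosomal passenger complex, had 52 and 47 UMIs in the week 2 control and 10 and 13 at anti-RANKL week 2. *Cenpf*, a large kinetochore protein that builds up in G2, followed another course. It was at 0.182 and 0.257 in the controls, at 0.0507 at week 2, and then at 0.183, 0.494 and 0.192 at weeks 4, 6 and 10. At week 2 it was lower than the control like the other genes (0.279, 0.134 to 0.541), but at week 6 it was higher than the week 2 control (2.72, 1.81 to 4.13) and the week 10 control (1.92, 1.34 to 2.76). Of its 65 UMIs at week 6, 31 lay in 1 *Aire*-positive cell that had 1 other gene of the 40, and 57 lay outside member-rich cells. Without the cell with most *Cenpf* UMIs in each library, which was left out after its values were seen, the ratios were 1.5 (0.917 to 2.43) and 1.13 (0.717 to 1.76). Over all UMIs without thinning, where deep cells weigh more, they were 1.22 and 1.09, so that the size of the *Cenpf* difference at week 6 depended on the thinning.

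Motors and spindle proteins had 12 genes, which summed to 1.16 and 1.30 per 10000 in the controls and to 0.317, 0.269, 0.448 and 1.02 after anti-RANKL. *Tpx2*, which nucleates spindle microtubules and activates *Aurka*, had 50 and 65 UMIs in the controls and 8, 12, 10 and 42 after anti-RANKL. *Nusap1*, which bundles microtubules near chromosomes, had 39 and 56, then 6, 13, 11 and 48. *Gtse1*, a microtubule protein of G2 and S, was the 1 gene at or above its control at week 2, with 10 UMIs against 4 and an interval of the ratio that included 1. Over all UMIs without thinning it was 2.01-fold lower (28 UMIs against 83). *Kif11*, the motor that pushes the spindle poles apart, was at 0.0531 and 0.0441 in the controls and at 0.0127, 0.00373, 0.0380 and 0.0213 after anti-RANKL. The 3 cytokinesis genes *Anln*, *Ect2* and *Kif23*, which build the cleavage furrow and the midzone, summed to 0.146 and 0.313 in the controls and to 0.0507, 0.0634, 0.137 and 0.188 after anti-RANKL. *Top2a*, which untangles sister DNA, was at 0.314 and 0.445 in the controls and at 0.0549, 0.112, 0.205 and 0.401 after anti-RANKL (5.73-fold lower at week 2). *Mki67*, the source of the Ki-67 antigen, differed less, with 0.173 in the week 2 control, 0.0676 at week 2 (2.56-fold lower) and 0.123 at week 4 (0.713, 0.435 to 1.16 against the week 2 control, and 0.457 over all UMIs without thinning). At week 10 it was lower than the week 10 control, at 0.107 against 0.192 (0.554, 0.327 to 0.917), while *Top2a* was near it.

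Cells were next divided by the cutoffs of the study on the deposited scale, above 0 for *Aire* and above 4 for *Ccl21a*. The scale factor stated in the methods is not that of the deposited values, so these classes need not hold the same cells as a class cut on another scale. In both controls most member-rich cells expressed *Aire* without high *Ccl21a*. Such cells were 65 of 76 member-rich cells in the week 2 control, 100 of 121 in the week 10 control and 85 of 92 at anti-RANKL week 10. At week 4 they were 0 of 14, and 12 of the 14 (85.7%, 57.2 to 98.2) were *Ccl21a*-high without *Aire*. At week 2 the 8 member-rich cells were 2 with *Aire* only, 3 with *Ccl21a* only, 2 with both and 1 with neither, and at week 6 the 13 were 7, 4, 1 and 1. The makeup of the libraries moved with this, since cells with *Aire* only were 726 of 1129 in the week 2 control and 37 of 1340 at week 4, where cells with *Ccl21a* only were 843.

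**Figure D3:**
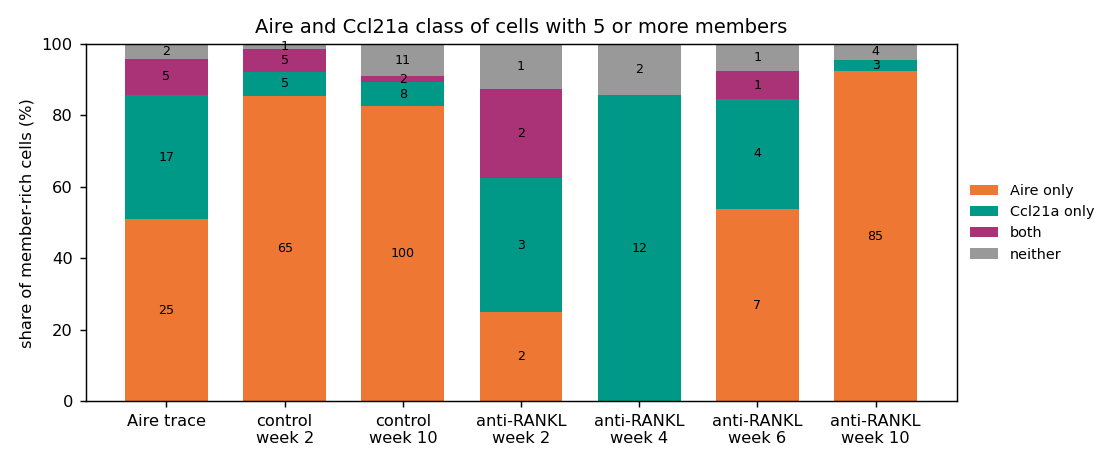
Share of member-rich cells (vertical axis, percent) with each *Aire* and *Ccl21a* status, stacked to the whole in each of the 7 libraries. *Aire* only cells form most of the bar in both controls and at week 10, and 12 of the 14 cells at week 4 are *Ccl21a* only.

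The 40 genes had a higher summed level in cells with *Aire* only than in cells with *Ccl21a* only in each library, with an interval that included 1 at week 4. Both classes were called on all UMIs, and cells with *Aire* only were deeper before thinning in each library. Their median was 20364 UMIs against 13228 in the week 2 control and 14687 against 8504 in the lineage tracing library. With *Aire* called after thinning, the week 2 control ratio of the mean number detected was lower, as given further on. The summed level was 8.11 against 3.94 per 10000 in the week 2 control (ratio 2.06, 1.66 to 2.57) and 10.1 against 5.21 in the week 10 control (1.94, 1.66 to 2.28). After anti-RANKL the ratio was 3.26 (2.52 to 4.20) at week 2, 1.37 (0.848 to 2.11) at week 4, 1.85 (1.48 to 2.31) at week 6 and 4.05 (3.30 to 5.02) at week 10. Without the *Aire* only cell with most *Cenpf* UMIs the ratio was 0.768 (0.393 to 1.36) at week 4 and 1.54 (1.22 to 1.94) at week 6. By the mean number detected per cell, week 4 turned the other way, with 0.297 in cells with *Aire* only and 0.335 in cells with *Ccl21a* only, a ratio of 0.889 (0.439 to 1.61) that was 1.45 (0.988 to 2.08) at 4000 UMIs per cell, so that no direction can be given there. In the lineage tracing library the levels were 12.4 and 2.38 (5.21, 4.56 to 5.96), and all 24 genes with at least 10 UMIs were higher in cells with *Aire* only. This held for 27 of 33 and 32 of 39 such genes in the controls of weeks 2 and 10, and for 5 of 5, 4 of 9, 4 of 7 and 31 of 32 at anti-RANKL weeks 2, 4, 6 and 10. The share of all genes higher in this contrast was not computed, so these counts do not set the 40 genes apart. Without cells that had a T cell or myeloid marker UMI, the ratio of the mean number detected had an interval that included 1 at week 2 (1.79, 0.884 to 3.31) and week 6 (1.10, 0.744 to 1.60), as at week 4. With a *Ccl21a* cutoff of 5, the ratio of the mean number detected was 7.53 in place of 1.97 in the week 2 control and 6.27 in place of 4.70 in the lineage tracing library. Among cells with *Aire* only, 8.95% and 12.8% were member-rich in the controls, and 1.63%, 0, 4.38% and 13.4% at weeks 2, 4, 6 and 10, where 0 of 37 cells allows a share of up to 8.11% (the limit of 3 cells). Among cells with *Ccl21a* only the shares were 4.24% and 4.82%, and 0.497%, 1.42%, 1.76% and 1.47%.

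At week 2 the ratio to the control was below 1 within each class of cells, but for cells with neither the interval included 1 (0.742, 0.550 to 1.002). The classes use the *Ccl21a* cutoff of 4, and ratios to the control within a class were not computed at other cutoffs. At week 2 the summed level was 4.27 per 10000 in cells with *Aire* only against 8.11 in the control (0.527, 0.427 to 0.643), and 1.31 against 3.94 in cells with *Ccl21a* only (0.332, 0.255 to 0.434). At week 6, cells with *Aire* only were at 0.717 of the week 2 control, and cells with *Ccl21a* only at 0.799 (0.611 to 1.05), and against the week 10 control these ratios were 0.576 and 0.604. Week 4 had ratios of 0.367 and 0.551 against the week 2 control and 0.294 and 0.417 against the week 10 control. Cells with neither were not below the week 2 control at weeks 4 and 6 (1.17 and 1.10) but lay below the week 10 control (0.565 and 0.529). Of the 22 UMIs in *Aire* only cells at week 4, 10 were *Cenpf* in 1 cell, and without that cell, left out after its values were seen, the *Aire* only ratios were 0.206 and 0.165. By summed level the classes parted at week 10. Cells with *Aire* only were at 9.82 against 10.1 (0.973, 0.902 to 1.05), whereas cells with *Ccl21a* only were at 2.43 against 5.21 (0.466, 0.360 to 0.599) and cells with neither at 2.61 against 3.66 (0.713). The interval for *Ccl21a* only thus lay wholly below that for *Aire* only, but both treat UMIs of the same cell as independent. Counted by cells, member-rich cells with *Ccl21a* only were 3 of 204 (1.47%, 0.304 to 4.24). In the control they were 8 of 166 (4.82%, 2.10 to 9.27), and these intervals overlap.

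**Figure D4:**
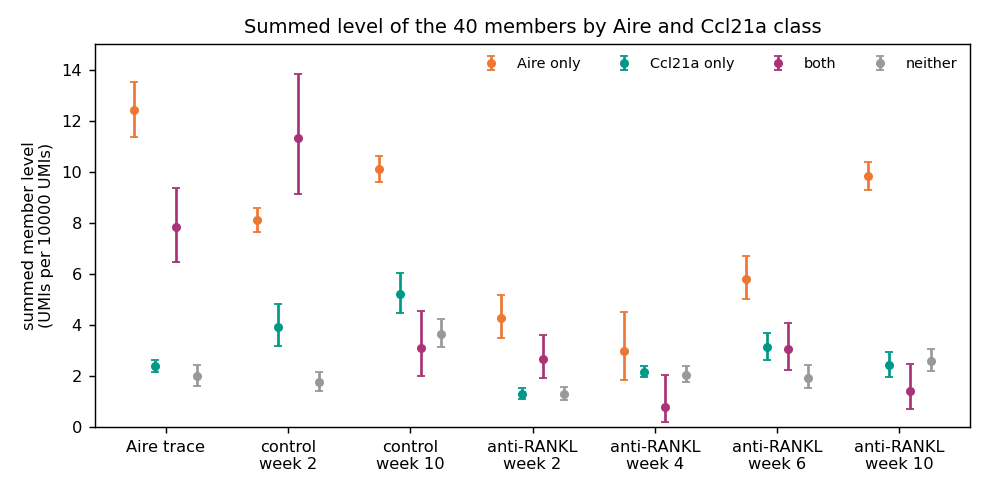
Summed level of the 40 genes (vertical axis, UMIs per 10000 at equal depth) by *Aire* and *Ccl21a* status in the 7 libraries, with exact Poisson 95% intervals. At week 10 after anti-RANKL, *Aire* only cells (9.82) are level with their control (10.1), and *Ccl21a* only cells (2.43) lie below theirs (5.21).

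Inside the class with *Aire* only, member-rich cells still carried *Aire* at about the level of the other cells in the week 2 control (ratio 0.986, 0.779 to 1.23) and at a lower level in the week 10 control (0.741, 0.605 to 0.899) and at week 10 (0.803, 0.648 to 0.986). *Krt5*, a keratin of basal and medullary epithelium, was higher in the member-rich cells, by 1.62-fold and 2.10-fold in the controls, 1.86-fold at week 10 and 2.37-fold in the lineage tracing library. At week 6 it was not (0.926, 0.295 to 2.22). Other mTEC genes were lower in some libraries. *Ccl21a* was at 0.632 (0.431 to 0.899) in the week 2 control and 0.539 (0.382 to 0.742) at week 10, but at 1.06 in the week 10 control. *Cd80* was at 0.430 (0.154 to 0.971) in the week 10 control, and *Fezf2* at 0.795 (0.638 to 0.980) at week 10. In the lineage tracing library ZsGreen was detected in 19 of 25 member-rich cells with *Aire* only (76.0%, 54.9 to 90.6) and in 163 of the 186 others (87.6%, 82.0 to 92.0). After thinning to equal depth it was detected in 5 of the 25 (20.0%, 6.83 to 40.7) and in 107 of the 186 (57.5%, 50.1 to 64.7), so that these intervals did not overlap.

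The genes differed in how far they were confined to member-rich cells. In both controls together, 197 of 2376 cells (8.29%) were member-rich. For each gene the cells were taken that were rich by the other genes alone. The median share of a gene's UMIs in such cells was 50%, from 23.8% for *Bub1*, a checkpoint kinase, to 87.5% for *Plk1*. *Cdc20* (78.6%), *Ube2c* (71.5%) and *Nusap1* (69.5%) stood near the top, and *Cks1b* (34.9%) and *Cks2* (38.3%) near the bottom. *Ube2c* was detected in 39.4% of the cells rich by other genes and in 2.06% of the rest, and *Cks2* in 50.3% and 10.3%. As a background for free RNA, cells with *Ackr4*, a gene of cortical TECs, were member-rich in 8 of 1014 cases over all libraries (0.789%, 0.341 to 1.55). By library they were 2.17% and 2.06% in the controls, 2.33% at week 10 and 1.18% in the lineage tracing library, and 0 at weeks 2, 4 and 6. The week 10 value rests on 2 of 86 cells (0.283 to 8.15). The 1.47% of cells with *Ccl21a* only there rests on 3 of 204 (0.304 to 4.24), so that these 2 shares cannot be ordered. In the week 2 control cells with *Ackr4* held a mean of 0.696 of the 40 genes at a median depth of 11400 UMIs, against 1.04 for all cells. At anti-RANKL week 2, 0 of 225 were member-rich, which allows up to 1.33% by the same limit. The limits at weeks 4 and 6 were 1.36% (0 of 221) and 2.42% (0 of 124). The member-rich shares of all cells at weeks 2, 4 and 6 were 0.676%, 1.04% and 1.98%. The limits follow from how few cells had *Ackr4*, so they cannot decide whether these shares lie above background. Whether cells with *Ackr4* were dividing themselves was not tested. Cells with *Trpm5*, a gene of tuft cells, were member-rich in 20 of 531 cases (3.77%), with 5.88% and 12.8% in the controls, 8.33% at week 10 and 0 at weeks 2 and 6, and cells with high *Krt10*, a keratin of cornified cells, in 1 of 82.

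Member-rich cells differed in which of the genes they held. In the 4 libraries with more than 40 such cells, 87 of 338 also held at least 5 of 40 S phase genes. *Top2a* was detected in 64.4% of these and in 35.1% of the 251 others, and *Nusap1* (43.7% against 26.7%), *Mki67* (33.3% against 18.7%) and *Aurkb* (26.4% against 12.4%) leaned the same way. The other direction was taken by *Ube2c* (20.7% against 51.0%), *Cenpa* (5.75% against 31.1%), *Ccnb2* (11.5% against 30.3%), *Ccnb1* (11.5% against 28.3%) and *Plk1* (5.75% against 17.9%). *Cdk1* was detected in 49.4% and 39.0%. In all, 16 of the 40 genes were more frequent and 24 less frequent in the cells with S phase genes, while the mean number of the genes per cell was 7.10 and 8.39. The shares are over cells chosen by these genes and are given without a test.

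**Figure D5:**
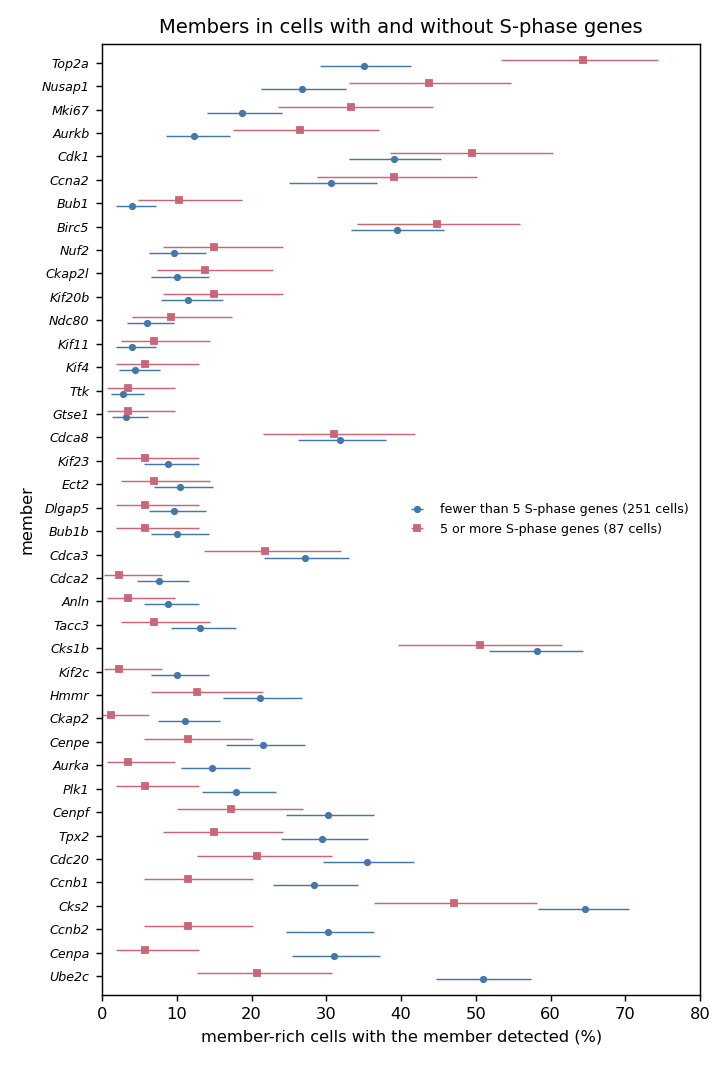
Share of member-rich cells in which each of the 40 genes was detected (horizontal axis, percent) in cells with at least 5 S phase genes (87 cells) and in the others (251 cells), with exact binomial 95% intervals. *Top2a* leads the genes more frequent with S phase genes (64.4% against 35.1%) and *Ube2c* those less frequent (20.7% against 51.0%).

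Other gene lists were set beside the 40 genes. Of 48 further G2 and mitosis genes, 22 had enough UMIs at week 2, where 7 were at least 2-fold lower and 0 higher, against 10.9% of all genes. At weeks 4 and 6 the lower genes were 11 of 23 and 7 of 21 against the week 2 control, and 14 of 27 and 9 of 23 against the week 10 control, with 2 and 1 higher at week 6 and 0 higher at week 4. At week 10 they were 1 of 34, with 0 higher. Of 40 S phase genes, 5 of 24 were lower and 1 higher at week 2. At weeks 4 and 6 the lower ones were 7 of 24 and 1 of 23 against the week 2 control (all genes 16.1% and 16.7%), and 14 of 27 and 7 of 28 against the week 10 control (14.2% and 14.8%), with 1 higher at week 4 against the week 10 control. At week 10 they were 3 of 29 (1.49%). The same shares of all genes are the background for the 48 genes above. Of 14 G1 regulators compared, 2 were lower at week 2, 3 at both weeks 4 and 6 against the week 2 control, 2 at both against the week 10 control, and 0 at week 10. Against the week 2 control, 1 G1 regulator was higher at week 2 and 1 at week 4. Of 6 housekeeping genes, 0 were lower in any of these comparisons and 1 was higher at week 6 against the week 2 control. Genes outside the 40 were ranked by the lower of their folds in the member-rich cells of both controls, and the first 10 of 7206 compared were the histone gene *Hist1h2ap* (30.9-fold and 18.2-fold in the controls of weeks 2 and 10), the kinase gene *Pbk* (19.8 and 14.5), *2810417H13Rik* (16.2 and 13.9), *Knstrn* (28.7 and 10.6), *Hmgb2* (10.7 and 9.52), the ribonucleotide reductase subunit *Rrm2* (9.06 and 11.3), *Lockd* (8.66 and 8.18), the kinetochore gene *Spc25* (11.7 and 8.18), the checkpoint gene *Mad2l1* (13.9 and 7.84) and *Stmn1* (7.12 and 7.39). The share of all genes at least 2-fold higher in member-rich cells was 7.03% in the week 2 control and 6.53% in that of week 10, and this contrast was chosen through the 40 genes.

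Markers of other cells were looked for in the member-rich cells. *Epcam* was detected in 84.6% to 100% of them by library before thinning. T cell markers, of which at least 3 of 10 were required, were found in 1 member-rich cell each in the week 2 control and at weeks 4, 6 and 10, and in 0 in the other 3 libraries. The T cell marker list summed to 4.64 per 10000 in the 14 member-rich cells of week 4 and to 0.309 in the other cells, and 1 of the 14 had at least 3 T cell markers and no *Epcam* UMI, as had 1 of the 92 at week 10. The part of these cells in the shares was tested by leaving out every cell with a T cell or myeloid marker UMI, which gave 6.31% in the week 2 control, 9.78% in the week 10 control, and 0.289%, 0.967%, 1.90% and 5.70% at weeks 2, 4, 6 and 10.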

How the data were processed

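Single-cell RNA-seq was made from sorted EpCAM+ CD45- thymic cells in 7 libraries. Per the labels, the authors aligned the reads to mm10 with Cell Ranger 2.2.0, adding ZsGreen for the lineage tracing library, and filtered the cells in Seurat 2.3.4. The values deposited by the authors are natural log values, ln(1 + x), where x is a gene's UMI count scaled so that each cell totals 10000. The methods state another scale factor, but every cell sums to 10000. Whole UMIs were recovered in all 8453 cells, with a tolerance of 0.001. Combined tables, which hold the same kind of values, were not used here.

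Cells with a *Ptprc* UMI were left out, and the rest were thinned at random to 2000 UMIs (numpy 2.4.6 and pandas 2.3.3 under Python 3.11.15, with intervals from scipy 1.17.1 and plots from matplotlib 3.10.9). Groups were taken from the labels. Cells of a pool are not replicates, so no p-value is given. Shares have exact binomial, levels exact Poisson and ratios exact conditional binomial 95% intervals. Those of levels and ratios treat UMIs as independent and are too narrow where many UMIs lie in few cells. For a share of 0, the upper limit given is 3 cells of the total. A gene at 0 was set to 3 counts over the group for a fold. The steps were checked on simulated data. No doublet caller was run, and leaving out the deepest 5% of cells stands in for one. The other alternatives were depth, seed, cuts, marker filters, cutoffs of *Aire* and *Ccl21a*, the UMI minimum and the fold.

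The 40 genes and all gene lists were chosen with earlier results of these data known. All 40 may be named, and genes of the lists where their list is described. Among genes outside the 40, the 10 with the largest fold in member-rich cells, by the lower of the 2 controls, may also be named. They were taken from genes with at least 30 UMIs in each control and a 2-fold difference in both.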

Additional observations from a re-analysis of the deposited data

Results flagged for a closer look

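*Cenpf* was below its control at anti-RANKL week 2 (ratio 0.279) and above the week 2 control at week 6 (ratio 2.72), which put the 2 time points on opposite sides of the control. Each time point is 1 library, and the difference between them was not tested. At week 6, 31 of the 65 *Cenpf* UMIs lay in 1 cell, and without the cell with most *Cenpf* UMIs in each library the week 6 ratio was 1.5 (0.917 to 2.43). Over all UMIs without thinning the week 6 ratio was 1.22 and the week 2 ratio 0.269.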

How the results depend on the processing

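Of 185 alternative values, 130 stayed within the spread used for comparison, 55 moved and 0 reversed, and 4 other seeds of the thinning moved none. The week 4 ratio of genes detected in *Aire* only to *Ccl21a* only cells, 0.889 with an interval that includes 1, crossed 1 without counting as reversed, with 1.45 at 4000 UMIs, 1.04 at a *Ccl21a* cutoff of 3 and 1.18 without marker UMIs. For the member-rich share, thinning to 4000 UMIs gave 5.66% in the lineage tracing library. The controls of weeks 2 and 10 then had 9.74% and 15.1%, and the anti-RANKL libraries 1.58%, 2.00%, 5.25% and 12.7% at weeks 2, 4, 6 and 10. A cut at 3 genes gave 5.54%, 10.3% and 14.4%, and 1.69%, 4.41% and 11.3% at weeks 2, 6 and 10, and a cut at 8 genes gave 2.35%, 3.37% and 4.89%, and 3.67% at week 10. Without any T cell or myeloid marker UMI the share was 2.57% in the lineage tracing library, 0.289% at week 2 and 5.70% at week 10. Without the deepest 5% of cells it was 2.72%, 4.76% and 7.85%, and 5.03% at week 10.

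For the ratio of the summed level, pooling without thinning gave 0.272 and 0.407 for weeks 4 and 6 against the week 2 control, 0.372 for week 6 against the week 10 control and 0.935 for week 10. Without marker UMIs the ratios were 0.215 for week 2, 0.374 for week 4 against the week 2 control, 0.378 for week 6 against the week 10 control and 0.644 for week 10. Without the deepest cells they were 0.238 for week 4 against the week 10 control, 0.616 for week 6 against the week 2 control and 0.751 for week 10. For the ratio of genes detected in *Aire* only to *Ccl21a* only cells, a *Ccl21a* cutoff of 5 gave 6.27 in the lineage tracing library, against 7.53 and 2.46 in the controls. Without marker UMIs it was 5.65, and 1.79 (0.884 to 3.31) and 1.10 (0.744 to 1.60) at weeks 2 and 6, where the intervals then included 1, and with *Aire* called after thinning 1.5 in the week 2 control.

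The genes at least 2-fold lower were 16 of 18, 16 of 19, 21 of 24, 10 of 19, 20 of 24 and 0 of 30 under the filter of 30 UMIs, in the order week 2, week 4 against each control, week 6 against each control, and week 10. A filter of 10 UMIs gave 32 of 38, 33 of 38, 35 of 39, 22 of 37, 32 of 39 and 3 of 40 (all genes 16.7%, 22.7%, 20.7%, 21.6%, 19.6% and 4.14%). All UMIs pooled gave 38, 37, 39, 32, 36 and 0 of 40 (all genes 20.0%, 27.1%, 21.5%, 22.4%, 18.4% and 2.22%). A limit of 1.5-fold gave 17 of 19 for week 6 against the week 2 control (28.0%) and 8 of 30 for week 10 (6.30%). The cause of these moves was not tested, except that a lower filter or no thinning admits more genes by construction.

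No paired analysis was possible because each group is 1 library. Depth limits the single genes, many of which rest on fewer than 10 UMIs after anti-RANKL, and treatment, pool, age at weeks 4 and 6, and library cannot be told apart.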

Other observations

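*Plk4*, the kinase that starts centriole duplication and no member of the 40 genes, was looked at after its values were seen. It had 25 UMIs at equal depth among the lineage-traced cells, 38 and 49 in the controls of weeks 2 and 10, and 12, 34, 115 and 54 at anti-RANKL weeks 2, 4, 6 and 10. Its week 6 level of 0.874 per 10000 was 5.19 times that of the week 2 control (3.57 to 7.70) and 4.45 times that of the week 10 control (3.16 to 6.35). Over all UMIs without thinning these ratios were 4.94 and 3.81. The 115 UMIs were spread over 66 cells, with at most 6 in 1 cell, and 4 of them lay in member-rich cells, while 37 of the 66 cells held none of the 40 genes. *Pttg1*, the securin that holds sister chromatids together until anaphase, was also looked at. It had 188 UMIs in the week 2 control and 222 at anti-RANKL week 2, and 6 of the 188 lay in member-rich cells. In the lineage tracing library 22 of its 167 UMIs lay in the 49 member-rich cells, 3.93 times the level of the other cells, against 0.457 and 0.613 times in the controls.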
